A study of Mus musculus with 6 samples.

Results

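The epidermal growth factor receptor (EGFR) family, 4 of its ligands and 3 of its feedback inhibitors were examined in 3T3-L1 adipocytes after knockdown of RBMS1. The 10 genes were Egfr, Erbb2 and Erbb3 (receptors), Hbegf, Areg, Ereg and Nrg4 (ligands) and Errfi1, Lrig1 and Lrig3 (inhibitors), found by symbol among 45706 genes of the counts table. They were chosen because Egfr and Errfi1 were lower in the knockdown, so the difference between the groups is given for these 10 genes as a description, without p-values. Where a fit called one of them, this is stated, but it follows from the choice and supports nothing. 3T3-L1 cells are mouse fibroblasts used as a model of fat cell formation. All 6 samples were differentiated with IBMX, insulin, dexamethasone and rosiglitazone and harvested on day 7. The 3 scrambled control samples, labelled WT, expressed a scrambled shRNA, and the 3 RBMS1 knockdown samples, labelled RBMS1KD, expressed an shRNA against Rbms1. According to the study's methods, the shRNA was delivered by lentivirus and stable cells were selected with puromycin. The study's methods call the 3 samples of a group biological replicates. The number of separate transductions behind them is not given in the sources used here.

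EGFR and its relatives ERBB2 and ERBB3 are receptor tyrosine kinases that dimerize when a ligand binds, with ERBB2 lacking a ligand of its own and ERBB3 having a weak kinase. Amphiregulin (Areg), epiregulin (Ereg) and heparin-binding EGF-like growth factor (Hbegf) bind EGFR, whereas neuregulin 4 (Nrg4), known as a factor secreted by adipose tissue, binds ERBB4. Signaling is damped by proteins that the pathway itself induces. MIG6, the product of Errfi1, binds the EGFR kinase domain and inhibits it, and transcription of Errfi1 also responds to glucocorticoids. LRIG1, a membrane protein with leucine-rich repeats, promotes degradation of ERBB receptors, and LRIG3 is its paralog.

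The sequences 250 bases upstream of the start of Egfr and of the 3 inhibitors are shown because these 4 genes hold the largest levels and differences among the 10. They were taken from RefSeq (GRCm38.p6), which matched 7 of the 10 genes. For Errfi1, the one of 2 listed starts that lies within 50 bases of more GENCODE M21 transcript starts was used. That window lies inside the span of the gene given for GENCODE M21, downstream of its first annotated base, and the stretch just after this RefSeq start was not found whole in the GENCODE transcripts of Errfi1. Capitals mark matches, searched on either strand. The core promoter motifs searched were the TATA box, spelled TATAAA, and the CCAAT box. The GC box that SP1 family factors are known to bind was searched as GGGCGG. A full cyclic AMP response element was searched as TGACGTCA. The half-site that the glucocorticoid receptor is known to bind was searched as AGAACA. The windows are chr11:16751953-16752202 on the plus strand for Egfr, chr4:150854820-150855069 on the plus strand for Errfi1, chr6:94700146-94700395 on the minus strand for Lrig1 and chr10:125965969-125966218 on the plus strand for Lrig3.
Egfr: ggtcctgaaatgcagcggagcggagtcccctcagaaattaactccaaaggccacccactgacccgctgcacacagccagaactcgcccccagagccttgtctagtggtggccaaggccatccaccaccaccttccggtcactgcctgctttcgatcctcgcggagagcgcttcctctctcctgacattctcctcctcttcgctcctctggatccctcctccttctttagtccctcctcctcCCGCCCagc
Errfi1: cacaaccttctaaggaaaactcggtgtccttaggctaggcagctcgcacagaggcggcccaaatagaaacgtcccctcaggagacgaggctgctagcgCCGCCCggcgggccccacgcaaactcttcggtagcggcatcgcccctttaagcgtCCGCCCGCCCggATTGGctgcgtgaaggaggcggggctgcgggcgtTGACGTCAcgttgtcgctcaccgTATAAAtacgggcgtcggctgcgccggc
Lrig1: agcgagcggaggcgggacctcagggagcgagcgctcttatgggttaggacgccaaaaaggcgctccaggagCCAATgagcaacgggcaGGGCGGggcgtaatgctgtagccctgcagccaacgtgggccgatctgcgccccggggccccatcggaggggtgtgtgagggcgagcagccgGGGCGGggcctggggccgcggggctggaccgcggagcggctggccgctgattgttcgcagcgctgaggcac
Lrig3: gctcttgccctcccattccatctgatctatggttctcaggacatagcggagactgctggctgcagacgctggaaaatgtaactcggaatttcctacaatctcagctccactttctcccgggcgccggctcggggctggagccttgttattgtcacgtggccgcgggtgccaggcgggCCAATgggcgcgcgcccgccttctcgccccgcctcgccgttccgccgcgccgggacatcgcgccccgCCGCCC

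The window of Errfi1 held a TATA box 28 bases before the start, a full cyclic AMP response element 51 bases before it, a CCAAT box and 3 GC boxes, of which 2 overlap. The window of Egfr held 1 GC box, at 9 bases before the start, and none of the other 4 motifs. The windows of Lrig1 and Lrig3 each held a CCAAT box, with 2 GC boxes in Lrig1 and 1 in Lrig3. Among the 32851 promoter windows of the same length, 12.4% held the TATA box, 33.8% the CCAAT box, 32.7% the GC box, 1.55% the full cyclic AMP response element and 16.1% the glucocorticoid half-site on either strand. The glucocorticoid half-site was in none of these 4 windows. A match describes the letters in the window and does not show that a factor binds there. The windows consisted of G and C to 60.8% in Egfr, 64.8% in Errfi1, 71.6% in Lrig1 and 66.0% in Lrig3, against a median of 52.4% over all windows.

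Total estimated counts were between 3142695 and 11073098 per sample, and 3 counts, the most that a count of 0 allows when counting error alone is considered, corresponded to 0.220 to 1.49 CPM per sample. CPM denotes counts per 1000000, after TMM scaling of each library. Scrambled control replicate 2 had the fewest counts, and genes derived from ribosomal RNA took 43.0% of them, against 8.12% to 17.8% in the other samples. Rbms1 itself was at 113, 102 and 99.6 CPM in the control and 49.2, 61.4 and 84.0 CPM in the knockdown samples (log2 fold change -0.69, standard error 0.20). The edgeR quasi-likelihood test gave it a Benjamini-Hochberg adjusted p = 0.185, and 0.0708 to 0.572 over all alternatives. The study reports that immunoblots of the protein showed the knockdown, a measure that is not among these data. The adipocyte markers were present in all samples, with 9 of 10 below 0 in log2 fold change, 0 called by edgeR, 3 at an unadjusted p under 0.05 (12.4% of all tested genes were), and a summed level of 22856 to 25762 CPM in the control and 12287 to 21615 CPM in the knockdown. Cebpa, Lpl and Pnpla2 lay lower in the knockdown with no overlap, as did 9.55% of all tested genes. The fatty acid transporter gene Cd36, 1 of the 3 with an unadjusted p under 0.05, was higher with no overlap, as were 8.96% of all tested genes. It was at 788, 667 and 613 CPM in the control and 1299, 900.0 and 1204 CPM in the knockdown samples. For the 8 preadipocyte and fibroblast markers the sums were 5663 to 7386 and 3042 to 8781 CPM, most of it from collagen genes. Of the 7 tested, 4 were below 0, 0 were called by edgeR and 2 had an unadjusted p under 0.05. Pdgfra was at 204, 244 and 258 CPM in the control and 83.2, 143 and 159 CPM in the knockdown samples, and Dlk1 at 361, 217 and 227 against 67.7, 192 and 189 CPM, so both lay lower in each knockdown sample, as Egfr, Errfi1 and Lrig3 did. Col1a2, Pdgfrb and Ly6a of the same list had log2 fold changes above 0 (0.40, 0.12 and 0.10). Ptprc, Adgre1, Kdr, Epcam, Cdh1, Myod1 and Myog, markers of leukocytes, macrophages, endothelium, epithelium and muscle, had no counts in any sample. The other markers of these lists were low, apart from Des of muscle at 19.4 to 33.4 CPM. Krt18, an epithelial keratin, was at 5.32, 4.56 and 0.220 CPM in the knockdown and at most 0.688 CPM in the control samples, Cd68 of macrophages was at most 3.27 CPM and Pecam1 of endothelium at most 1.99 CPM. In such bulk samples, fewer cells of a type and less RNA per cell cannot be told apart, and the part of the adipocyte and fibroblast markers in the values below was not tested.

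Of the 10 genes, 9 had at least 1 count and 7 passed the filter on low counts. Of these 7, Egfr and Errfi1 passed an adjusted p of 0.1, the genes that the choice rested on, while 1.22% of all 11440 tested genes passed it and 0.909% passed it with a lower level in the knockdown. In 3 of the 7 (Egfr, Errfi1 and Lrig3) each knockdown sample lay below each control sample. Over all tested genes 18.5% of the genes had no overlap between the groups, and 9.55% had none with the knockdown lower. The median log2 fold change was -0.43 over the 7 genes, against 0.0044 over all tested genes. Since 3 genes with few counts were not tested, these counts do not describe all 10 genes.

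Egfr (ENSMUSG00000020122), on chromosome 11 of GRCm38 from 16752203 to 16918158, was at 71.3, 72.0 and 85.3 CPM in the scrambled control samples. In the RBMS1 knockdown samples it was at 13.8, 24.3 and 16.1 CPM. The highest knockdown sample was therefore below the lowest control sample by a wide margin, and the receptor was 4.22-fold lower in the fit (log2 fold change -2.08, standard error 0.23). The means were 76.2 ± 7.91 CPM (SD, n = 3) and 18.1 ± 5.53 CPM (SD, n = 3). Leaving out single samples gave values between -2.33 and -1.91, and the value was -2.12 without scrambled control replicate 2.

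Erbb2 (ENSMUSG00000062312, chromosome 11 from 98412470 to 98437716), the partner with which the other receptors form dimers, was not lower with Egfr. It was at 11.4, 5.46 and 13.1 CPM in the control and 7.91, 15.2 and 20.4 CPM in the knockdown samples, so the groups overlapped. Its log2 fold change was 0.51 (standard error 0.39). Erbb3 (ENSMUSG00000018166, chromosome 10 from 128567523 to 128589652) had 1 count in each control sample and 0, 2 and 7 counts in the knockdown samples. The ratio of knockdown to control per unit of library size was 1.45 with a 95% exact binomial interval from 0.362 to 8.32. This interval, like that of Hbegf below, pools the samples of a group and covers counting error only, not the spread between samples. Erbb4, the remaining receptor of the family, had no counts in any sample.

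**Figure D1:**
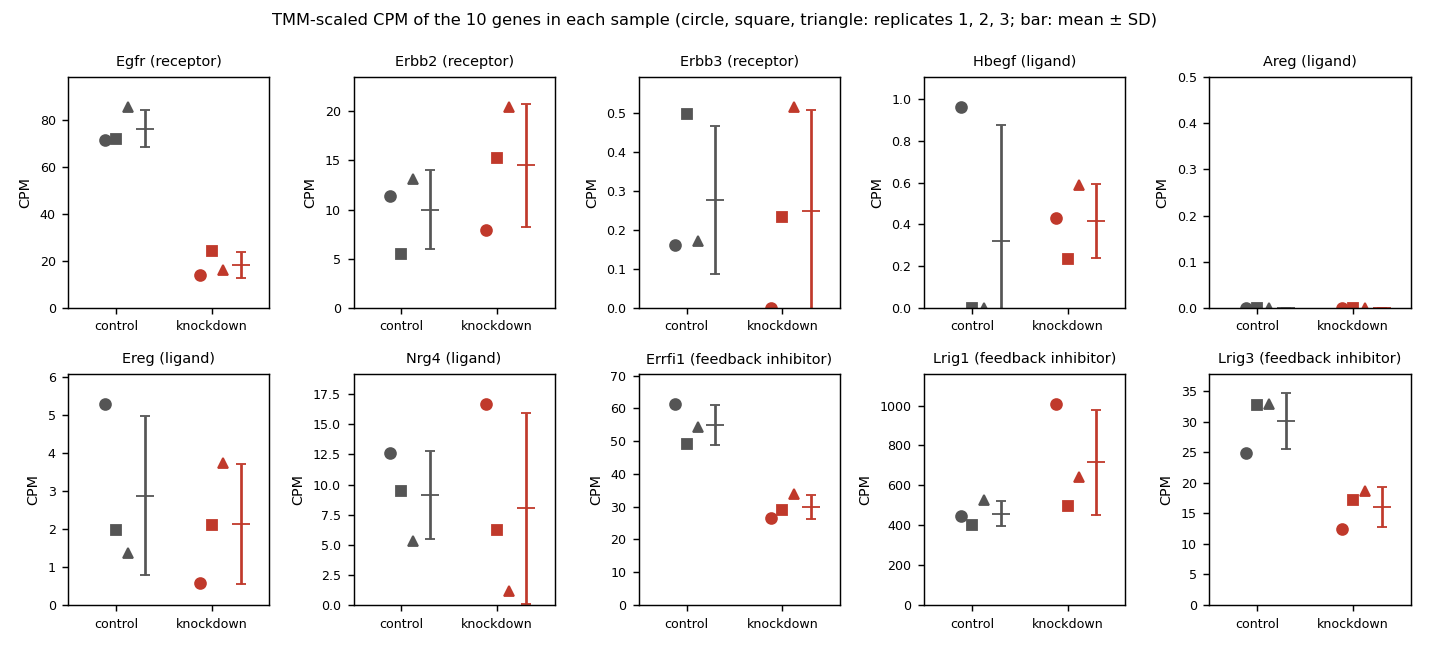
Each panel plots 1 of the 10 genes, with CPM on a linear axis from 0, the 3 scrambled control samples in grey and the 3 RBMS1 knockdown samples in red. Circles, squares and triangles stand for replicates 1, 2 and 3, and the bars give the mean and SD of each group. The groups are apart for Egfr, Errfi1 and Lrig3 and overlap or lie near 0 for the other genes.

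The ligands were scarce in both groups. Areg, which lies beside Ereg on chromosome 5 (91139599 to 91148432), had no counts in any of the 6 libraries, which allows up to 0.0694 CPM over all of them together. Hbegf had 6, 0 and 0 counts in the control and 3, 2 and 8 in the knockdown samples, which gave a knockdown to control ratio of 1.05 after scaling to library size, with a 95% exact binomial interval from 0.371 to 3.36. Its counts in the control came from replicate 1 alone. Ereg (ENSMUSG00000029377, chromosome 5 from 91074622 to 91093646) was at 5.29, 1.99 and 1.38 CPM in the control and 0.575, 2.10 and 3.74 CPM in the knockdown samples. The samples of the groups were interleaved, and the log2 fold change of -0.43 (standard error 0.69) became 0.49 without scrambled control replicate 1. Nrg4 (ENSMUSG00000032311, chromosome 9 from 55220222 to 55326844) was the most abundant of the 4 ligands on the scale of CPM per kilobase. It was at 12.7, 9.43 and 5.33 CPM in the control and 16.7, 6.20 and 1.17 CPM in the knockdown samples. The knockdown samples held both the highest and the lowest value of the 6, and the log2 fold change of -0.22 (standard error 0.73) went from -1.34 to 0.32 when single samples were left out.

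The 3 inhibitors did not share a direction. Errfi1 (ENSMUSG00000028967, chromosome 4 from 150853919 to 150868892) was at 61.2, 49.1 and 54.2 CPM in the control and 26.6, 29.0 and 33.99 CPM in the knockdown samples. The groups did not overlap, and the transcript of the EGFR kinase inhibitor was 1.84-fold lower in the fit (log2 fold change -0.88, standard error 0.17). Without any 1 control sample or RBMS1 knockdown replicate 2 the value lay between -0.95 and -0.79. Errfi1 was not called in these fits, with the replicate block (log2 fold change -0.88) or with library sizes alone. With library sizes alone its log2 fold change was -0.52, where the median of all genes was higher by 0.37 than with TMM factors. Lrig3 (ENSMUSG00000020105, chromosome 10 from 125966168 to 126015359) was at 24.8, 32.8 and 32.9 CPM in the control and 12.4, 17.2 and 18.6 CPM in the knockdown samples. These groups did not overlap either, and its log2 fold change of -0.90 (standard error 0.22) was as large as that of Errfi1 but did not pass edgeR's threshold, while DESeq2 called it.

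Lrig1 (ENSMUSG00000030029, chromosome 6 from 94604529 to 94700158), the paralog of Lrig3, lay on the other side. It was at 447, 399 and 524 CPM in the control and 1007, 498 and 642 CPM in the knockdown samples. RBMS1 knockdown replicate 2 lay below the highest control sample, and replicate 1 was far above all the others. The log2 fold change was 0.65 (standard error 0.26), and it was 0.33 without RBMS1 knockdown replicate 1. In each knockdown sample the ratio of Lrig1 to Lrig3 per kilobase of exon was higher than in each control sample, at 122, 43.3 and 51.4 against 26.9, 18.2 and 23.8. With the longest transcript as the length these ratios were 66.0, 23.5 and 27.9 against 14.6, 9.88 and 12.9.

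**Figure D2:**
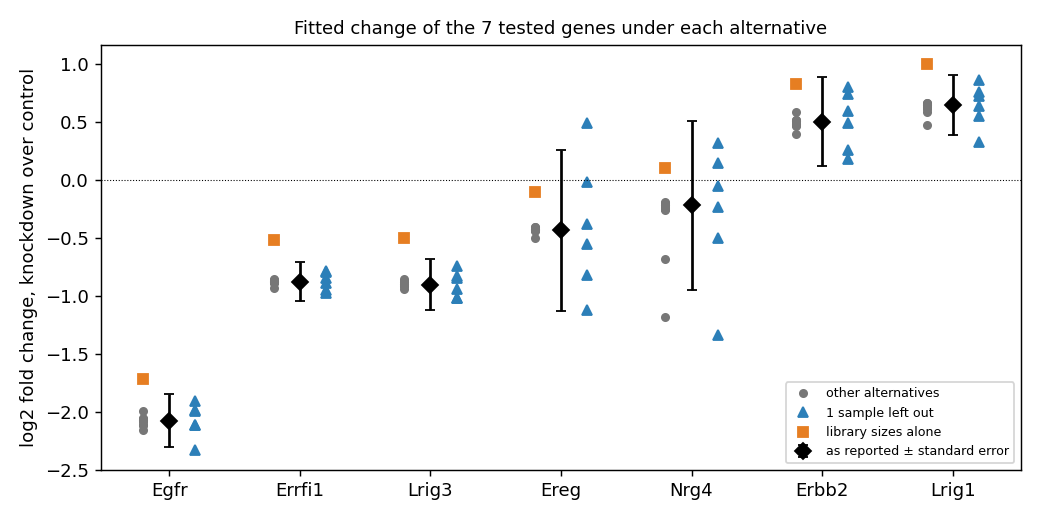
Log2 fold change (knockdown over control, y axis) of the 7 tested genes. Black diamonds give the reported fit with its standard error, grey circles the other alternatives, orange squares the library sizes alone and blue triangles the fits with 1 sample left out. Egfr, Errfi1 and Lrig3 are below 0 and Erbb2 and Lrig1 above 0 in every fit, whereas Ereg and Nrg4 change sign.

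Levels of different genes were compared as CPM per kilobase of exon. In the scrambled control the order was Lrig1 (81.7 ± 11.3, SD, n = 3), Errfi1 (15.3 ± 1.70), Egfr (6.73 ± 0.70), Lrig3 (3.61 ± 0.55), Erbb2 (1.91 ± 0.77), Nrg4 (1.505 ± 0.60), Ereg (0.70 ± 0.51), Hbegf (0.066 ± 0.11), Erbb3 (0.046 ± 0.032) and Areg (0). Neighbors in this order did not overlap in their samples from Lrig1 down to Erbb2 and between Ereg and Hbegf, whereas Erbb2 and Nrg4, Nrg4 and Ereg, and Hbegf and Erbb3 overlapped. In the knockdown, Egfr (1.59 ± 0.49) was no longer the receptor with the highest mean, which was that of Erbb2 (2.78 ± 1.21). The samples of these receptors overlapped, at 1.22 to 2.15 for Egfr and 1.52 to 3.92 for Erbb2. Egfr also overlapped with Lrig3 (1.92 ± 0.39) above it and with Nrg4 (1.32 ± 1.30) below it. Lrig1 (128 ± 47.0) and Errfi1 (8.34 ± 1.05) kept the first places.

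The ratio of Egfr to Erbb2 per kilobase was 2.88, 6.06 and 3.00 in the control samples. It was 0.803, 0.736 and 0.362 in the knockdown samples. Per kilobase, Egfr was thus above Erbb2 in 3 of 3 control samples and below it in 3 of 3 knockdown samples. In CPM, without division by length, the knockdown samples were at 13.8, 24.3 and 16.1 for Egfr and 7.91, 15.2 and 20.4 for Erbb2. On that scale Egfr was above Erbb2 in RBMS1 knockdown replicates 1 and 2 and below it in replicate 3. The ratio of Lrig1 to Egfr was 12.7, 11.2 and 12.4 in the control samples, which lay close together, and 148, 41.5 and 81.0 in the knockdown samples. That of Errfi1 to Egfr was 2.71, 2.16 and 2.01 in the control and 6.09, 3.77 and 6.68 in the knockdown samples, although Errfi1 itself was lower there. These ratios within a sample do not depend on how the libraries are scaled. They rest on the same comparison that the genes were chosen from. With the length of the longest transcript in place of all exons, Egfr was still above Erbb2 in each control sample (3.08, 6.47 and 3.20) and below it in each knockdown sample (0.857, 0.786 and 0.387). In the control order, however, Lrig3 (7.51) then moved ahead of Egfr (7.47) and Nrg4 (4.36) ahead of Erbb2 (1.99).

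**Figure D3:**
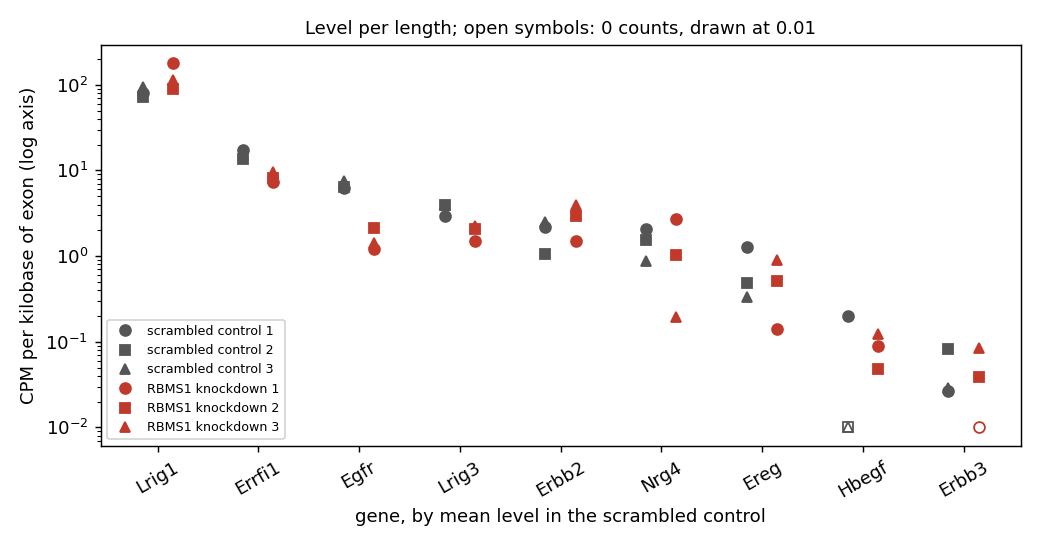
CPM per kilobase of exon on a log axis for the 9 genes with a count, ordered by the mean of the scrambled control samples (grey, RBMS1 knockdown in red, symbols by replicate). Open symbols at the bottom are samples with 0 counts. Egfr lies above Erbb2 in each control sample and below it in each knockdown sample, but the knockdown ranges of these genes overlap.

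Among the 3 tested genes on each side of Egfr, Fignl1 to Pno1, log2 fold changes ranged from -2.99 to 0.51, with a median of -0.038. The next tested genes on either side, Sec61g (-0.094, standard error 0.20) and Ppp3r1 (0.017, standard error 0.18), were close to 0. The value of -2.99 belonged to Grb10, an imprinted gene for an adaptor that inhibits insulin and growth factor receptors, 4714 kb away, and it was the only one of the 6 that passed an adjusted p of 0.1. The 3 tested genes on each side of Errfi1, from Gpr157 to Per3, lay between -0.40 and 0.28 with a median of -0.17, and none passed that threshold in edgeR's fit. The median was -0.084 on chromosome 11 and 0.074 on chromosome 4 over their 909 and 697 tested genes. After the median of each chromosome was removed from each sample, the log2 fold changes were -1.997 for Egfr and -0.93 for Errfi1.

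The genes whose pattern over the 6 samples was most like that of Egfr, by the root mean square difference of centered log2 CPM among 11439 other tested genes, were Slc22a17 (0.244), Klra2 (0.262), Ogn (0.269), Chrdl1 (0.277) and Ptprm (0.295). Ogn, which encodes the matrix proteoglycan osteoglycin, was at 112, 127 and 178 CPM in the control and 27.5, 63.0 and 42.7 CPM in the knockdown samples, with scrambled control replicate 3 highest and RBMS1 knockdown replicate 2 highest of its group, as for Egfr. Slc22a17 had the same replicates highest. In Klra2 and Ptprm scrambled control replicate 3 was instead lowest of its group, and in Chrdl1 RBMS1 knockdown replicate 2 was. For Errfi1 the genes most like it were Tmem192 (0.103), Dusp4 (0.113), Fgf10 (0.124), Rassf2 (0.126) and Anxa5 (0.127). Dusp4 encodes a phosphatase that inactivates ERK and belongs to the pathway list described next. Genes picked in this way share the difference between the groups with Egfr and Errfi1 by construction.

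To place the 10 genes in their pathway, 102 further genes of ERBB signaling were listed by role, of which 94 were tested. Adam12, Pik3ca, Spry1 and Dusp4 fell, and none rose, in the edgeR quasi-likelihood test at a Benjamini-Hochberg adjusted p of 0.1. These were 4.26% of the list, against 1.22% of all tested genes. A total of 51 of the 94 genes were below 0, against 49.6% of all tested genes, and their median log2 fold change was -0.031. In the list 19 of the 94 genes had an unadjusted p under 0.05, against 12.4% of all tested genes, and 14.9% had no overlap with the knockdown lower, against 9.55%. A further 7 genes had no overlap with the knockdown higher, as did 8.96% of all tested genes. Without RBMS1 knockdown replicate 1 the list had 11 called genes, 8 lower and 3 higher, in a fit that called 696 of 11724 genes.

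Among the regulators, Spry1, which encodes an inhibitor of RAS to ERK signaling that growth factors induce, was at 20.2, 22.3 and 17.0 CPM in the control and 8.91, 8.18 and 4.70 CPM in the knockdown samples (log2 fold change -1.45, standard error 0.28, edgeR adjusted p = 0.0733). Dusp4 was at 42.6, 33.3 and 38.2 CPM against 22.1, 18.8 and 23.1 CPM (log2 fold change -0.84, standard error 0.18, edgeR adjusted p = 0.0913). Both were lower in 3 of 3 knockdown samples. These were 2 of 16 genes for negative feedback and phosphatases, 11 of which were below 0 (median -0.25). Spry4, of the same family as Spry1, was at -0.37 (log2 fold change, standard error 0.21), and its samples overlapped. Adam12, a metalloprotease able to shed EGFR ligands, was at 130, 144 and 147 CPM in the control and 83.2, 78.3 and 62.8 CPM in the knockdown samples (log2 fold change -0.91, standard error 0.16, edgeR adjusted p = 0.0499). Of the other 6 shedding genes, Adam9 had a log2 fold change of -0.58 and Adam10, a major sheddase, one of 0.42, and neither passed edgeR's threshold. Adam9 was called by DESeq2 (adjusted p = 0.0457) and by edgeR without RBMS1 knockdown replicate 1 (adjusted p = 0.0937). It lies on chromosome 8, and its log2 fold change was -0.19 with the chromosome medians removed and also with library sizes alone.

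In the core of the cascade, Pik3ca, the catalytic subunit of PI3-kinase, was at 52.6, 72.0 and 63.8 CPM in the control and 33.2, 34.4 and 32.7 CPM in the knockdown samples (log2 fold change -0.91, standard error 0.16, edgeR adjusted p = 0.0578), and it was the 1 called gene of 8 in the PI3-kinase arm. Akt1, a kinase downstream of PI3-kinase, had a value of 0.47 and was not called. Its value was 0.23 without RBMS1 knockdown replicate 3. It was called in 1 of 20 settings, as higher without RBMS1 knockdown replicate 1 (log2 fold change 0.70, edgeR adjusted p = 0.0599). In the same fit Pik3cb, another catalytic subunit, was called as well and was lower, with 12.7, 18.9 and 13.6 CPM in the control and 13.4, 6.55 and 7.71 CPM in the knockdown samples. Of 13 genes from RAS to ERK, 14 tested adaptors and scaffolds, 6 genes of the STAT arm and 14 tested genes of ubiquitination and endocytic sorting, 0 were called by edgeR, also with DESeq2, and 2, 1, 1 and 1 of them had an unadjusted p under 0.05, against 12.4% of all tested genes. Without RBMS1 knockdown replicate 1, edgeR called Ksr1, a scaffold of the RAS to ERK cascade, which was at 56.9, 48.1 and 48.7 CPM in the control and 60.1, 32.1 and 29.4 CPM in the knockdown samples. Of the adaptors 11 of 14 were above 0, and of the genes from RAS to ERK 8 of 13. Their medians lay between -0.081 and 0.15. Mapk3, the gene of ERK1, was at 0.19 on the log2 scale, the adaptor genes Shc1 and Ptpn11 had values of 0.013 and 0.20, and the ubiquitin ligase gene Nedd4 and the endosomal gene Rab7 had values of -0.13 and 0.14. The coreceptor genes Nrp1 and Sdc4 had values of -0.46 and 0.11, and Jak1 of 0.027. Nrp1 lies on chromosome 8 and was at -0.061 with the chromosome medians removed and -0.070 with library sizes alone. Cd44, a further coreceptor gene, was among the 3 higher genes called without RBMS1 knockdown replicate 1, with 37.2, 29.8 and 27.9 CPM in the control and 25.7, 50.5 and 79.5 CPM in the knockdown samples. Of the 7 further ligands, Btc and Nrg1 were the most abundant per kilobase and were under 11 CPM in every sample, with 0 called by edgeR or DESeq2 and 0 at an unadjusted p under 0.05 among the 3 tested.

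The 9 tested transcripts that ERK signaling induces had the lowest median of the roles, -0.74, with 6 of 9 below 0. None was called by edgeR, and 5 had an unadjusted p under 0.05, against 12.4% of all tested genes. DESeq2 called 1 of them, Phlda1, and 437 of all 11440 genes. Fos had the lowest log2 fold change of the role, -2.01 (standard error 0.65). It was at 412, 161 and 227 CPM in the control and 16.4, 139 and 43.2 CPM in the knockdown samples. Phlda1 was at 29.0, 15.4 and 16.3 CPM against 7.76, 8.53 and 11.2 CPM (log2 fold change -1.15, standard error 0.29). Without the filter on low counts edgeR called Phlda1 and Junb. Egr1, a zinc finger transcription factor, was at 637, 359 and 389 CPM in the control and 42.7, 306 and 175 CPM in the knockdown samples. Junb, a subunit of AP-1, was at 395, 247 and 235 CPM in the control and 26.3, 150 and 90.9 CPM in the knockdown samples. The groups were apart in both genes, but RBMS1 knockdown replicate 1 was several times lower than the other knockdown samples, and the log2 fold changes of -1.40 (standard error 0.55) and -1.72 (standard error 0.50) became -0.94 and -1.28 without it. Junb then passed the threshold (edgeR adjusted p = 0.0381), and so did Ccnd1, the gene of cyclin D1, in the other direction. Ccnd1 was at 65.7, 33.3 and 35.3 CPM in the control and 7.48, 81.5 and 110 CPM in the knockdown samples. With the chromosome medians removed, the log2 fold change of Junb, which lies on chromosome 8, was -1.32. RBMS1 knockdown replicate 1 also held the highest Lrig1 and Nrg4 and the lowest Egfr, Errfi1 and Lrig3. Rbms1 itself was lowest in this sample as well (49.2 CPM).

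**Figure D4:**
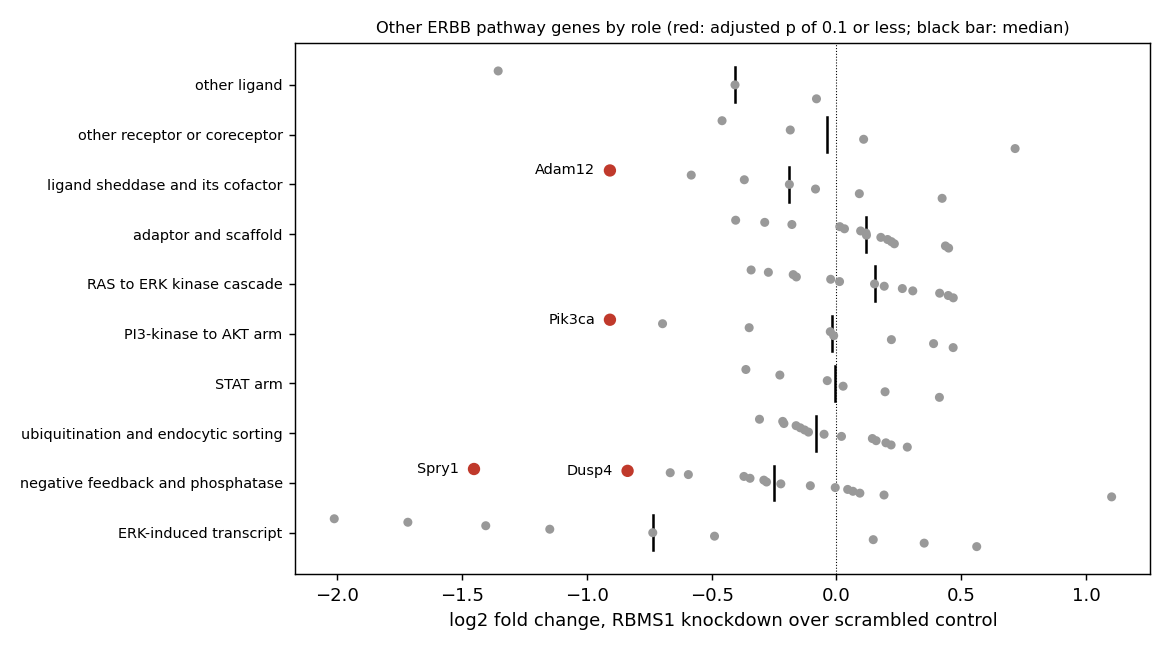
Log2 fold change (x axis) of the 94 tested genes of the ERBB pathway list by role (y axis), with genes at an adjusted p of 0.1 or less in red and the median of each role as a black bar. The 4 red genes are all below 0, and the ERK-induced transcripts have the lowest median.

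Of the 4 called genes, 3 lie in regions with low medians. Dusp4 lies on chromosome 8, where the median log2 fold change of 624 tested genes was -0.38, and Pik3ca and Spry1 lie in the first 50 Mb of chromosome 3, where 90 tested genes had a median of -0.63. With the median of each whole chromosome removed, Adam12 was called (log2 fold change -0.86, edgeR adjusted p = 0.0883). The others were not, with log2 fold changes of -1.31 for Spry1, -0.76 for Pik3ca and -0.45 for Dusp4 (edgeR adjusted p = 0.119, 0.123 and 0.433). The median of chromosome 3 as a whole was -0.13, so this step did not take out the lower level of its first 50 Mb. Without any 1 control sample, or without RBMS1 knockdown replicate 2, none of the 4 was called (edgeR adjusted p between 0.123 and 0.298). Their log2 fold changes there were -1.55 to -1.38 for Spry1, -0.95 to -0.87 for Adam12, -1.02 to -0.80 for Pik3ca and -0.92 to -0.74 for Dusp4. None of the 10 genes of the family itself lies on chromosome 8 or 3.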

How the data were processed

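RNA of 3 scrambled control and 3 RBMS1 knockdown samples was sequenced as stranded total RNA. According to the labels and the study's methods, the authors used Trim Galore 0.6.7 for trimming, STAR 2.7.10a for alignment to GRCm38 and Salmon 1.9.0 for quantification. The deposited table holds estimated counts per gene that were not normalized, in 1 column per sample. The annotation release is not given in the sources used here.

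Counts were rounded, filtered with filterByExpr and scaled by TMM, and condition was fitted as the only term by glmQLFit (bias-adjusted estimates) of edgeR 4.0.16 in R 4.3.3. P-values of glmQLFTest were adjusted after Benjamini-Hochberg over 11440 tested genes. Genes at an adjusted p of 0.1 or less were called. The alternatives were DESeq2 1.42.0, limma 3.58.1 (voom), RLE size factors, library sizes alone or without ribosomal RNA genes, other filters, unrounded counts, earlier edgeR estimates, a replicate block, removal of chromosome medians or of GC and length trends, and single samples left out. A log2 CPM used a prior count of 2. Levels per kilobase used the union of exons in GENCODE M21 (GRCm38). Of the listed symbols, Erbin was matched by its gene ID. For 3 against 3 samples the smallest exact permutation p is 0.1.

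The genes named are the 10 members, the called genes of the pathway list with the 2 most abundant per kilobase in each role, the 5 genes most like Egfr and Errfi1, their 3 neighbors on each side, and Rbms1. Some genes that this rule names are not reported here. Fos, Phlda1, Ccnd1, Cd44, Ksr1 and Pik3cb were named after their values were seen. The members, lists and tests were chosen with earlier results of these data known. The edgeR fit was tested on simulated counts with known changes. It called 49% of the simulated 2-fold changes and 87.8% of the 4-fold changes, and 8.22% of its 146 calls were on unchanged genes. A gene that was not called may therefore still differ.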

Additional observations from a re-analysis of the deposited data

How the results depend on the processing

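The number of called genes among all tested was 140 and depended on the setting. It was 437 with DESeq2 on the same genes, 431 with DESeq2 on all genes with a count, 268 without a filter on low counts, 73 with the chromosome medians removed and 39 with the replicate block, and it ranged from 12 to 696 with each sample left out in turn. DESeq2 on all genes and the earlier quasi-likelihood estimates of edgeR were chosen after seeing the data. Of the called genes 74.3% were lower in the knockdown, and 33.3% with library sizes alone, where the median log2 fold change of all genes was 0.37. The ERBB pathway list had 4 called genes, against 0 with library sizes alone, 0 with the replicate block, 1 (Adam12) with the chromosome medians removed, and 0 to 11 with each sample left out. The value of 1 without RBMS1 knockdown replicate 2 was Fos, that of 2 without replicate 3 was Adam12 and Spry1, and that of 11, with 8 lower and 3 higher, was without replicate 1, where 696 of 11724 genes were called in all. Of the 10 family genes 2 were called, against 1 (Egfr) with library sizes alone and with the replicate block, and 1 to 2 with each sample left out. DESeq2 called 3, with Lrig3 added. Rbms1 passed the threshold in DESeq2 on the same genes (log2 fold change -0.68) and, among the values with each sample left out, which ranged from -0.92 to -0.52, without RBMS1 knockdown replicate 3. With the longest transcript as the length, 5 of 9 detected genes kept their place in the order of levels. The samples of a replicate number correlated at -0.144, 0.0785 and -0.0284 in their deviations from the group means. Samples of different numbers correlated at -0.173 to 0.206. So few values cannot decide whether the numbers pair the samples. The replicate block lowered the count of calls to 39. Erbb3, Hbegf and Areg had too few counts to be tested, and whether deeper libraries would show more of them was not tested.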
